A study of Mus musculus with 12 samples.

Results

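Elastic fibres are the recoiling part of the extracellular matrix, and the genes described here are 10 that encode their parts, the enzymes that crosslink them and 1 matrix partner. They are Eln, Fbn1, Fbn2, Mfap4, Mfap5, Fbln1, Fbln5, Lox, Loxl1 and Postn. A gene was read from probe sets to which the platform annotation gives that gene alone, and 9 of the 10 had 1 such probe set, among 19938 genes measured. Fbn1 was not analysed here.

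The study measured gene expression on 12 whole-transcript arrays of mouse embryonic fibroblasts (MEFs) from OG2 crossed with 129/sv; OG2 is a transgene that reports Oct4 activity. One arm of 6 cultures was infected with SKO, a set of reprogramming factors taken here as Sox2, Klf4 and Oct4, together with a retrovirus that carried microRNA cluster C, microRNA cluster B or nothing (blank virus). The other arm of 6 cultures received cluster C, cluster B or blank virus alone. Cultures were kept in embryonic stem cell medium and harvested on day 8 or day 4, counted from the first infection, and each of the 12 combinations had 1 array. Feeder cells were removed before RNA was extracted, per the labels. One label, the description, gives the same text for all 12 samples and names a pre-iPSC line at another day; the titles, cell type and time labels, which were used, give MEFs at day 8 or day 4. The labels do not spell out SKO or the clusters. They tag the arm without SKO as a second group, so SKO and any other difference between these groups cannot be told apart. With no replicate arrays, each standard error (SE) rests on how far virus effects varied with day in 1 limma model of the 12 arrays. A gene counted as called where its p, after Benjamini-Hochberg adjustment across the 19938 genes, was under 0.05. The labels do not say whether cultures were independent, so this spread may be technical. In these bulk cultures, fewer cells of a type and less RNA per cell cannot be told apart.

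In a fibroblast culture, elastic fibres form outside the cell. Fibrillins, the large glycoproteins encoded by Fbn1 and Fbn2, assemble into microfibrils, to which the microfibril-associated glycoproteins encoded by Mfap4 and Mfap5 bind. Tropoelastin, the product of Eln, is laid onto that scaffold with the help of fibulins, of which fibulin-5 (Fbln5) binds both tropoelastin and the lysyl oxidase family. Lysyl oxidase (Lox) and lysyl oxidase-like 1 (Loxl1) then oxidise lysine side chains, and the aldehydes formed join elastin and collagen chains together. Periostin (Postn) is a matricellular protein that binds matrix proteins and promotes the activation of lysyl oxidase. Loss of Lox, Loxl1, Fbln5 or Eln in mice disrupts elastic tissue.

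Sequence around the start is shown for Postn and Fbln1, which were lower with SKO at both days, and for Fbln5, which was higher with SKO at day 4. The windows come from RefSeq of GRCm38.p6, run from 250 bases before to 50 after an annotated start, and are written 5′ to 3′ on the gene's strand. Windows of Lox and Fbn2 were not searched and are not reported here. RefSeq windows were found for 3 of the other measured members, 6 windows in all, and the 4 shown are those that held a motif. Both strands were searched for the TATA box letters TATAAA, the SP1 box GGGCGG, the AP-1 site TGANTCA, the TEAD site GGAATG, the KLF site GGGNGTGG, the octamer ATGCAAAT and the SOX site ACAATGG. Capitals mark every match, and no match overlapped another.
Postn, chr3:54360857-54361156, strand +: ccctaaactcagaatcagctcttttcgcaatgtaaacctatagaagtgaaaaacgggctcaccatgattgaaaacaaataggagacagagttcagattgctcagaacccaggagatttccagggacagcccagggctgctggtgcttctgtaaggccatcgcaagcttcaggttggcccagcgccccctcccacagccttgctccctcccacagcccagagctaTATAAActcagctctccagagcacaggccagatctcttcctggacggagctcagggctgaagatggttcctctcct
Fbln1, chr15:85205758-85206057, strand +: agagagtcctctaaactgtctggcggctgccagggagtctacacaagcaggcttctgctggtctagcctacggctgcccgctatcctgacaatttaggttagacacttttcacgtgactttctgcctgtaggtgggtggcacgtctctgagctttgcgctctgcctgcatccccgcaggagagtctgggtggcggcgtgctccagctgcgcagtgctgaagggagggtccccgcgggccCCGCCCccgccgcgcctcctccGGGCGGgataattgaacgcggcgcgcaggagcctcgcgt
Fbln5, chr12:101819070-101819369, strand -: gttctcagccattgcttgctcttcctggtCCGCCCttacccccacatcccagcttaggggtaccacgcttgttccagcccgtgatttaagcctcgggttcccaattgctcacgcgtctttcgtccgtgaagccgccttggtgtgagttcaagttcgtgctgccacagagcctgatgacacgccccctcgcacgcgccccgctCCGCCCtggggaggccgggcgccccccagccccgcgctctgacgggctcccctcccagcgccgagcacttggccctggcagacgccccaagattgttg
Fbln5, chr12:101818435-101818734, strand -: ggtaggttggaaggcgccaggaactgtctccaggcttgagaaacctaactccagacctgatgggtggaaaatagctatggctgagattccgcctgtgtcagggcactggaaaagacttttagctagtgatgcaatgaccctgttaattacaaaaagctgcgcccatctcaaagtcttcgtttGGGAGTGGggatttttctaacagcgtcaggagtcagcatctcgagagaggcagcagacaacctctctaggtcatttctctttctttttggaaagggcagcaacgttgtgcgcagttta
The Postn window held a TATA box that begins at position -26 from the start, a motif found in 13.6% of 32851 mouse windows of the same length. The Fbln1 window held 2 SP1 matches, at -11 and 12, and the upstream Fbln5 window held 2, at -221 and -48, against 35.7% of windows with any. The downstream Fbln5 window held 1 KLF match at -68, where 17.6% of windows hold one. Octamer and SOX letters were in none of the 6 windows, and they are in 1.74% and 3.66% of all windows. A match describes the letters and not a bound site.

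Pou5f1, which encodes Oct4, had values from 11.6035 to 12.0025 where SKO was given and from 3.35 to 4.56 where it was not, so each array fell with its labelled arm. Klf4 ranged from 8.63 to 8.91 with SKO and from 6.92 to 7.16 without. Sox2 was less far apart, from 5.34 to 7.55 with SKO and from 4.55 to 5.18 without. The 7.55 was cluster C at day 8, and the next highest with SKO was 6.04. Array medians lay between 4.98 and 5.07. Every member lay above the arrays' lower quartiles, which were between 3.48 and 3.68 in log2 units, on all 12 arrays.

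With SKO, most elastic fibre genes were expressed at lower levels, and Eln was not one of them. At day 8, 7 of the 9 measured members fell with SKO (Fbn2, Mfap4, Mfap5, Fbln1, Lox, Loxl1 and Postn), 1 rose (Eln) and Fbln5 did not pass. At day 4, 6 fell (the same without Fbn2), Eln and Fbln5 rose, and Fbn2 did not pass. Over all genes, 12.7% were called lower and 13.4% higher at day 8, and 9.4% lower and 9.52% higher at day 4. The members were chosen with earlier results of these data known, so shares of all genes are a setting and not a test of the group. The median difference of the 9 members was -1.43 log2 units at day 8 and -0.92 at day 4, and over all genes it was -0.07 and -0.04. For 6 members (Mfap4, Mfap5, Fbln1, Lox, Loxl1 and Postn) the highest of the 6 arrays with SKO lay below the lowest of the 6 without, which held for 7.1% of all genes. Within day 8, all 3 arrays with SKO lay below all 3 without for 7 members (24.2% of all genes) and above for 1 (20.7%), and within day 4 below for 6 (17.9%) and above for 2 (15.8%). Calls in either direction came to 8 of 9 members on each day, with 26.1% of all genes called at day 8 and 18.9% at day 4. Of 12 fibroblast and 10 smooth muscle markers, 9 each also fell at day 8.

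**Figure D1:**
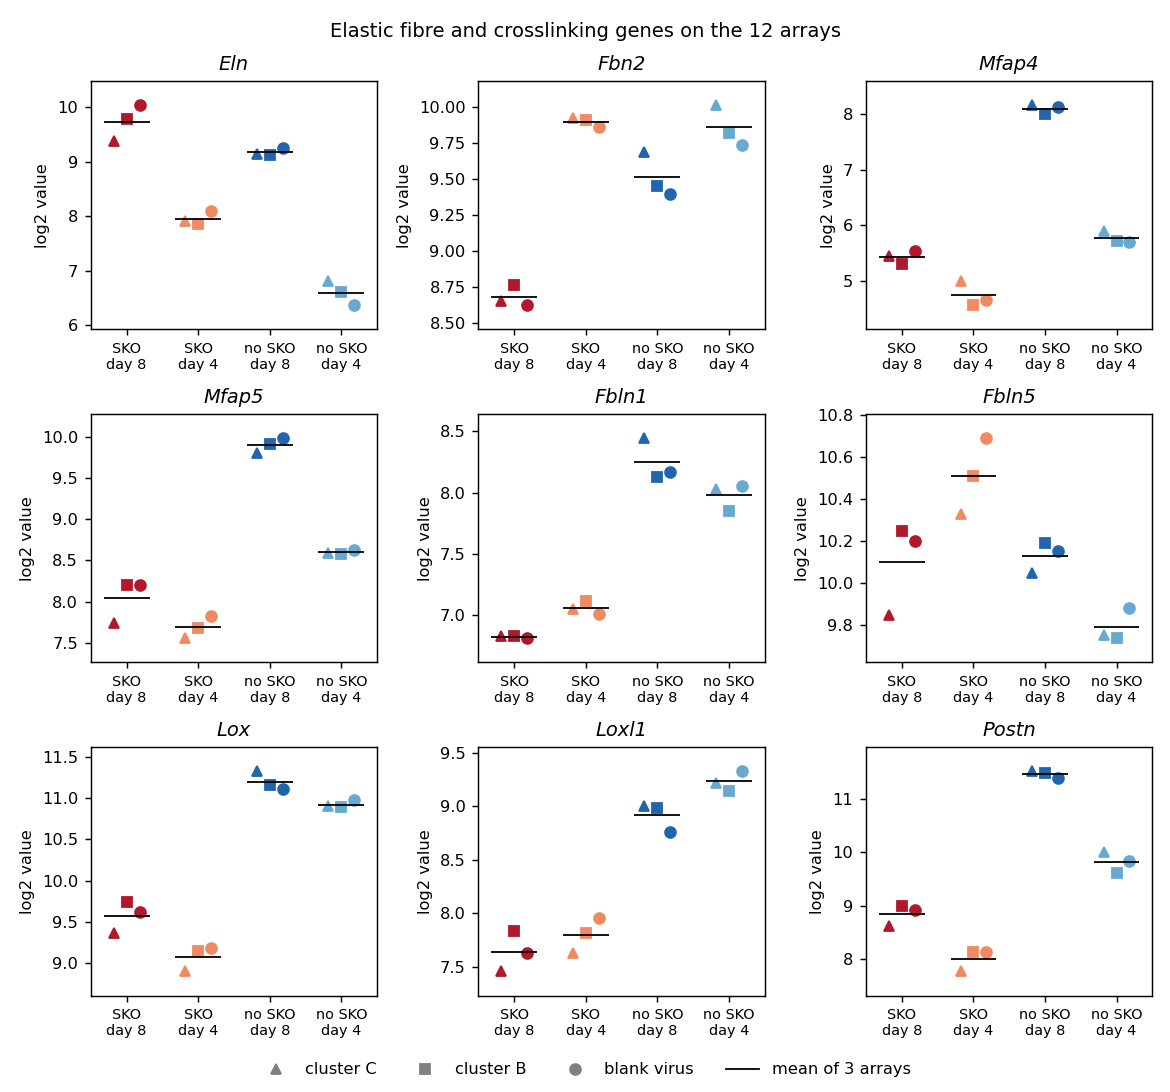
Deposited log2 value (y axis) of each of the 9 measured genes on the 12 arrays, by SKO and day (x axis), with a triangle for cluster C, a square for cluster B, a circle for blank virus and a line for the mean of 3 arrays. In the panel of Lox all 6 arrays with SKO sit at or below 9.74 and all 6 without at or above 10.89, while in the panel of Eln the day 8 arrays stand above the day 4 arrays in both arms.

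Eln, the gene of tropoelastin, was the only member that passed in the higher direction at both days. With SKO it lay at 9.38 (cluster C), 9.79 (cluster B) and 10.04 (blank virus) at day 8, against 9.14, 9.13 and 9.25 without SKO. At day 4 it lay at 7.91, 7.86 and 8.09 with SKO, against 6.81, 6.61 and 6.36 without. Arrays with and without SKO did not overlap on either day, although the highest day 4 array with SKO lay below all day 8 arrays without. The difference was 0.56 ± 0.14 log2 units at day 8 (1.48-fold; SE, 3 arrays against 3; limma adjusted p = 0.0177) and 1.36 ± 0.14 at day 4 (2.56-fold, adjusted p = 0.000202). The day 8 call rested on single arrays, and it was lost without any 1 of 4 day 8 arrays, which were blank virus and cluster B with SKO, and cluster B and cluster C without. The difference then lay between 0.44 and 0.53. At day 4 leaving out any 1 array kept the call.

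Fbn2 encodes fibrillin-2, the fibrillin best known from developing tissue. Its values at day 8 were 8.65, 8.76 and 8.62 with SKO for cluster C, cluster B and blank virus, against 9.69, 9.45 and 9.39 without. At day 4 they were 9.92, 9.91 and 9.86 with SKO, against 10.01, 9.82 and 9.74 without. The arms were apart at day 8 and overlapped at day 4. Fbn2 was lower with SKO by a log2 difference of -0.83 ± 0.09 at day 8 (adjusted p = 0.0002, limma), and at day 4 the difference was 0.04, with a 95% interval from -0.17 to 0.25.

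Both microfibril-associated genes fell with SKO. Mfap4 lay at 5.45, 5.32 and 5.54 with SKO at day 8 (cluster C, cluster B, blank virus), against 8.16, 7.995 and 8.12 without, and at 5.00039, 4.56 and 4.66 with SKO at day 4, against 5.91, 5.73 and 5.70 without. No array with SKO at day 8 reached even the day 4 arrays of the other arm. Its log2 difference was -2.66 ± 0.11 at day 8 (limma adjusted p = 7.88e-07), and at day 4 it was -1.04 ± 0.11 (adjusted p = 0.00026). With SKO the Mfap4 values stood between the percentiles 39.2 and 52.8 of genes on their array, and no detection calls were used here. The differences of Mfap4 between the arms may therefore be lower bounds. Mfap5, whose product also binds fibrillin microfibrils, lay at 7.74, 8.21 and 8.20 with SKO at day 8, against 9.81, 9.91 and 9.99 without. At day 4 it was at 7.55, 7.68 and 7.83 with SKO, against 8.59, 8.58 and 8.63 without. Mfap5 differed by -1.86 ± 0.10 log2 units at day 8 and by -0.91 ± 0.10 at day 4 (adjusted p = 3.25e-06 and 0.00035).

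The 2 fibulin genes gave different calls. Fbln1, which encodes a fibulin found in basement membranes and elastic fibres, lay at 6.83, 6.83 and 6.81 with SKO at day 8 (cluster C, cluster B, blank virus), against 8.44, 8.13 and 8.17 without. At day 4 it lay at 7.05, 7.11 and 7.01 with SKO, against 8.03, 7.85 and 8.05 without. The arms were apart at both days, with differences of -1.43 ± 0.10 at day 8 (limma adjusted p = 1.19e-05) and -0.92 ± 0.10 at day 4 (adjusted p = 0.000277). Fbln5 lay at 9.85, 10.25 and 10.20 with SKO at day 8, against 10.05, 10.19 and 10.15 without, and these overlapped. At day 4 it lay at 10.33, 10.51 and 10.69 with SKO, against 9.75, 9.74 and 9.88 without, with no overlap. Fbln5 was 1.64-fold higher with SKO at day 4 (0.72 ± 0.10 log2 units, adjusted p = 0.0012), and at day 8 its difference was -0.03, with a 95% interval from -0.26 to 0.20.

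Both lysyl oxidase genes fell with SKO on each day. Lox lay at 9.37, 9.74 and 9.62 with SKO at day 8, against 11.33, 11.16 and 11.11 without, for cluster C, cluster B and blank virus. At day 4 it lay at 8.90, 9.15 and 9.19 with SKO, against 10.90, 10.89 and 10.98 without. Its level was 3.08-fold lower with SKO at day 8 and 3.59-fold lower at day 4, with log2 differences of -1.62 ± 0.10 and -1.84 ± 0.10 (limma adjusted p = 6e-06 and 6.19e-06). Loxl1, whose product acts mainly on elastin, lay at 7.45, 7.83 and 7.63 with SKO at day 8, against 9.0035, 8.98 and 8.76 without. At day 4 Loxl1 lay at 7.62, 7.81 and 7.95 with SKO, against 9.22, 9.15 and 9.33 without. The differences of Loxl1 were -1.28 ± 0.12 at day 8 and -1.44 ± 0.12 at day 4 (adjusted p = 6.17e-05 and 5.35e-05). No array with SKO reached any array without for either enzyme.

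Postn had the largest SD over the 12 arrays among the members, 1.36 log2 units. It lay at 8.61, 8.99 and 8.91 with SKO at day 8, against 11.52, 11.50 and 11.40 without, and at 7.76, 8.12 and 8.12 with SKO at day 4, against 9.997, 9.62 and 9.83 without. The day 8 arrays with SKO lay below the day 4 arrays without. With SKO its level was 6.22-fold lower at day 8, a log2 difference of -2.64 ± 0.11 (limma adjusted p = 6.34e-07). At day 4 it was 3.52-fold lower (-1.81 ± 0.11, adjusted p = 8.52e-06).

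**Figure D2:**
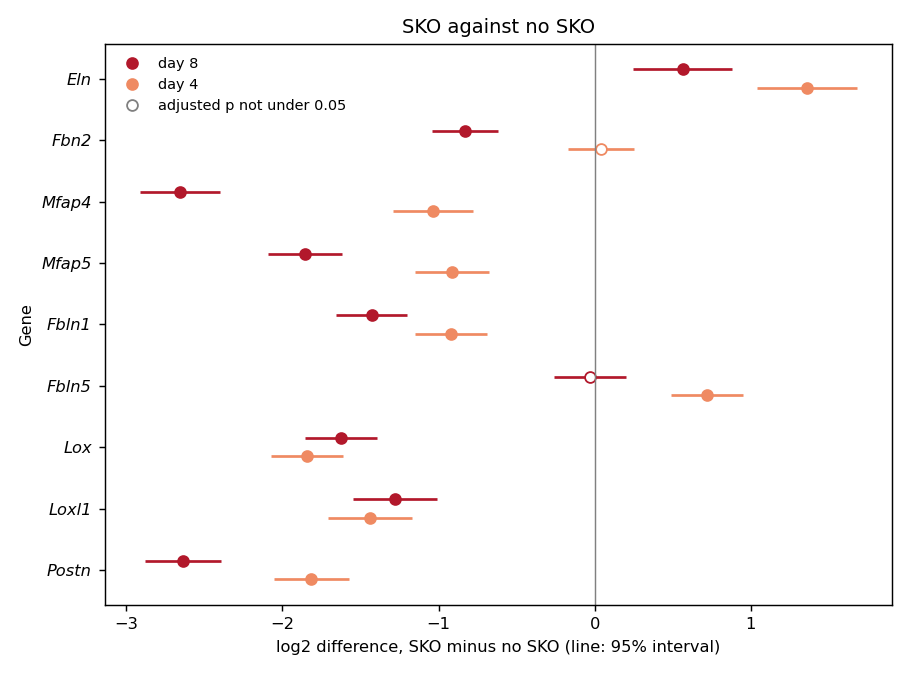
Log2 difference between arrays with and without SKO (x axis, SKO minus no SKO, averaged over the 3 viruses) for each gene (y axis) at day 8 and day 4, with the 95% interval from the limma fit as a line and open points where the adjusted p was not under 0.05. Mfap4 and Postn lie farthest to the left at day 8, at -2.66 and -2.64, and Eln lies to the right of 0 at both days.

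Tested against a minimum change of 1.5-fold, Eln and Fbn2 no longer passed at day 8. At day 4 Mfap4, Mfap5, Fbln1 and Fbln5 no longer passed, and Eln, Lox, Loxl1 and Postn did. The other alternatives kept the SKO calls of all members at both days, apart from those of Eln named above.

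Several of these genes also differed between day 8 and day 4. Without SKO, 4 of the 9 were called higher at day 8 (Eln, Mfap4, Mfap5 and Postn) and none lower, with 4.05% of all genes called higher, 4.63% lower and 8.68% in either direction. With SKO, 4 rose (Eln, Mfap4, Lox and Postn) and 2 fell (Fbn2 and Fbln5), with 5.24% of all genes called higher, 3.66% lower and 8.9% in either direction. Beside these, 7 of 8 epithelial, 4 of 9 pluripotency, 1 of 7 chondrocyte and 1 of 12 fibroblast markers rose with SKO. There 1 of 12 fibroblast and 1 of 10 smooth muscle markers fell. Without SKO, 3 of 7 chondrocyte, 2 of 7 leukocyte, 2 of 8 endothelial and 2 of 12 fibroblast markers rose and none fell. The part of these markers in the day differences was not tested. All 3 day 8 arrays lay above all 3 day 4 arrays for 4 members with SKO (14.2% of all genes) and for 7 without (14.3%). They lay below for 3 with SKO (Fbn2, Fbln1 and Fbln5; 14.0% of all genes) and for 2 without (Fbn2 and Loxl1; 15.8%). Comparisons of SKO, of day and of their interaction share arrays, so their calls are not independent of each other.

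Eln had the largest rise with time in both arms. It was higher at day 8 than at day 4 by 1.78 ± 0.14 log2 units with SKO (3.44-fold, limma adjusted p = 0.000199) and by 2.58 ± 0.14 without (5.97-fold, adjusted p = 2.7e-05). Mfap4 rose by 0.69 ± 0.11 with SKO (adjusted p = 0.00645) and by 2.31 ± 0.11 without (adjusted p = 1.66e-05). Postn rose by 0.84 ± 0.11 with SKO and by 1.66 ± 0.11 without (adjusted p = 0.00199 and 6.08e-05). For Mfap5 the day difference was 0.36 with SKO, short of the threshold (adjusted p = 0.066), and 1.31 ± 0.10 without SKO (adjusted p = 0.000209). The 3 day 8 arrays of Eln, Mfap4 and Postn lay above the 3 day 4 arrays in each arm, and so did those of Mfap5 without SKO.

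Fbn2 fell with time in the arm with SKO. There its log2 difference between day 8 and day 4 was -1.22 ± 0.09 (limma adjusted p = 0.000171), and without SKO it was -0.35 ± 0.09 (adjusted p = 0.0535), with day 8 below day 4 for each of the 3 viruses in both arms. Fbln5 fell with SKO (-0.41 ± 0.10, adjusted p = 0.0393), and without SKO its difference was 0.34 (adjusted p = 0.0754). Fbln1 had values of -0.24 with SKO and 0.27 without, neither past the threshold (adjusted p = 0.204 and 0.135). Lox rose with SKO by 0.50 ± 0.10 (adjusted p = 0.0186) and differed by 0.28 without SKO (adjusted p = 0.133). Loxl1 differed by -0.16 with SKO and by -0.32 without, again short of the threshold. With SKO, the day call of Fbln5 was lost with each arm fitted alone, with the cluster C effect free by day and with every probe set tested (limma adjusted p = 0.0796, 0.0522 and 0.0544). It was also lost at a minimum change of 1.5-fold, without any of the 6 arrays with SKO and without 4 arrays of the other arm. Lox was no longer called without any of the 6 SKO arrays, nor Mfap4 without any of the 4 SKO arrays of cluster B or blank virus, which left 3 members called without 1 of those 4.

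**Figure D3:**
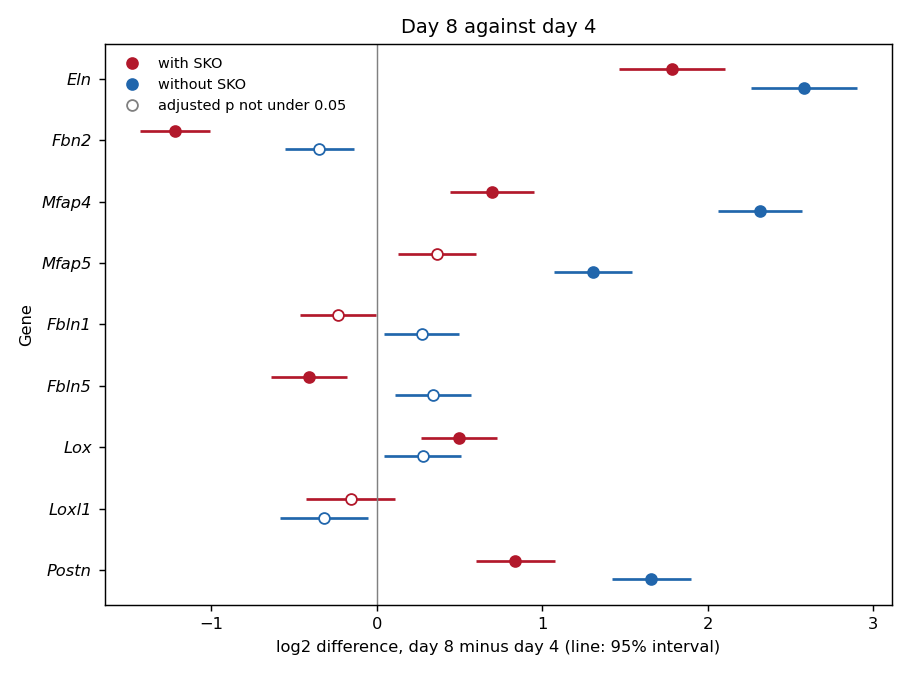
Log2 difference between day 8 and day 4 (x axis, day 8 minus day 4, averaged over the 3 viruses) for each gene (y axis) with SKO and without, with the 95% interval from the limma fit as a line and open points where the adjusted p was not under 0.05. The rise of Mfap4 is 0.69 with SKO and 2.31 without, and Fbln1 and Fbln5 lie on opposite sides of 0 in the 2 arms.

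Whether the change with time differed between the arms was tested as the interaction of SKO and day. For 5 of the 9 members the change was lower with SKO, and for none higher, where 1.0% of all genes were called lower, 1.97% higher and 2.97% in either direction. The interaction was -1.62 ± 0.16 log2 units for Mfap4 (limma adjusted p = 0.00148), -0.94 ± 0.15 for Mfap5 (adjusted p = 0.0132), -0.87 ± 0.13 for Fbn2 (adjusted p = 0.0114), -0.82 ± 0.15 for Postn (adjusted p = 0.025) and -0.75 ± 0.14 for Fbln5 (adjusted p = 0.0303). Eln (-0.80, adjusted p = 0.0749), Fbln1 (-0.51, adjusted p = 0.104), Lox (0.22) and Loxl1 (0.16) did not pass, the intervals of the last 2 running from -0.11 to 0.55 and from -0.22 to 0.54. Leaving out any 1 of the 12 arrays brought the 5 calls to between 1 and 3, and Mfap4 passed each time. Its values with SKO stood only between the percentiles 39.2 and 52.8 of genes on their array. Whether background narrowed its rise with SKO, and so enlarged its interaction, was not tested. Postn was also lost in the additive fit (adjusted p = 0.0549, limma). In the same interaction 4 of 8 epithelial and 3 of 9 pluripotency markers were called higher, and 2 of 7 chondrocyte markers lower. Of 12 fibroblast markers 1 was called higher and 2 lower, and no smooth muscle, endothelial or leukocyte marker was called. The part of these markers was not tested.

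As a description of the 9 patterns, the sum of squares over the 12 arrays was divided among SKO, day and virus. SKO held 93.4% of it for Lox, 93.7% for Loxl1 and 93.6% for Fbln1. Day held 79.8% for Eln and 61.7% for Fbn2, where SKO held 15.5% and 15.8%. For Fbln5 the interaction of SKO and day held 43.8%, and for Mfap4, Mfap5 and Postn SKO held 53.4%, 66.1% and 73.2%. The virus held at most 1.86% in the members other than Fbln5, where it held 12.4%, and the median over all genes was 6.16%. A share is relative to the gene's own spread. The SD over the 12 arrays was 0.52 (Fbn2) to 1.36 (Postn) in those members and 0.30 in Fbln5, with a median of 0.225 over all genes. A smaller share is therefore not a smaller difference between viruses.

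**Figure D4:**
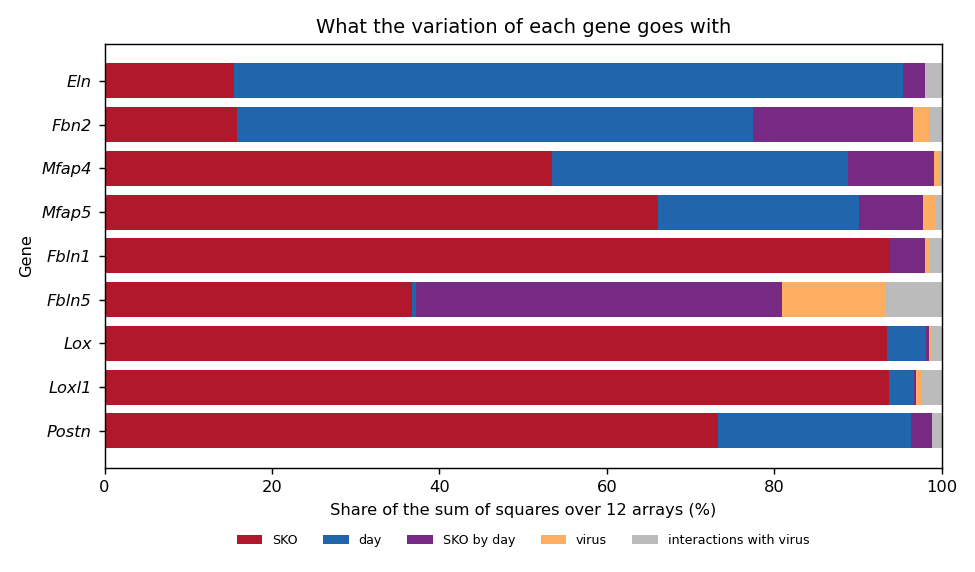
Share of the sum of squares over the 12 arrays (x axis, percent) that goes with SKO, day, their interaction, virus, and interactions with virus, for each gene (y axis). Bars of Lox, Loxl1 and Fbln1 are almost filled by SKO, that of Eln by day at 79.8%, and Fbln5 shows the widest interaction and virus segments.

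No member passed the test for a microRNA cluster. With SKO, cluster C against blank virus gave 0 calls among the 9, where 0.0201% of all genes were called. With limma the differences were -0.42 ± 0.17 for Eln (adjusted p = 0.712) and -0.37 ± 0.13 for Mfap5 (adjusted p = 0.687). Those of Fbln5 and Postn were -0.35 ± 0.12 and -0.33 ± 0.13 (limma adjusted p = 0.687 and 0.704). The crosslinking enzymes had -0.27 ± 0.13 for Lox and -0.25 ± 0.15 for Loxl1. Mfap4 was at 0.13, Fbn2 at 0.05 and Fbln1 at 0.03. The 95% intervals of the 9 together ran from -0.81 to 0.44.

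Between single arrays, 6 members (Eln, Mfap5, Fbln5, Lox, Loxl1 and Postn) lay below blank virus on both days with SKO and cluster C, as did 28.9% of all genes. Eln had a difference of -0.67 log2 units at day 8 and of -0.18 at day 4. The other 5 had differences from -0.46 to -0.18 at day 8 and from -0.36 to -0.27 at day 4. In the fit of this comparison, median differences of the marker lists were 0.88 for pluripotency, 0.62 for epithelium, -0.28 for smooth muscle and -0.20 for fibroblasts, with 0 markers called in each, and their part was not tested. Without SKO, the cluster C differences of Eln were -0.11 at day 8 and 0.45 at day 4. Those of Mfap5 were -0.18 and -0.04, and those of Fbln5 -0.10 and -0.13. Lox had 0.21 and -0.08, Loxl1 0.24 and -0.11, and Postn 0.13 and 0.17. With SKO and cluster B, Eln also lay below blank virus, by -0.26 at day 8 and -0.23 at day 4. There the other 5 had differences from 0.01 to 0.20 at day 8 and from -0.18 to -0.004 at day 4. The difference in cluster C effect between the arms called 0 members with limma, where 0.0% of all genes were called.

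**Figure D5:**
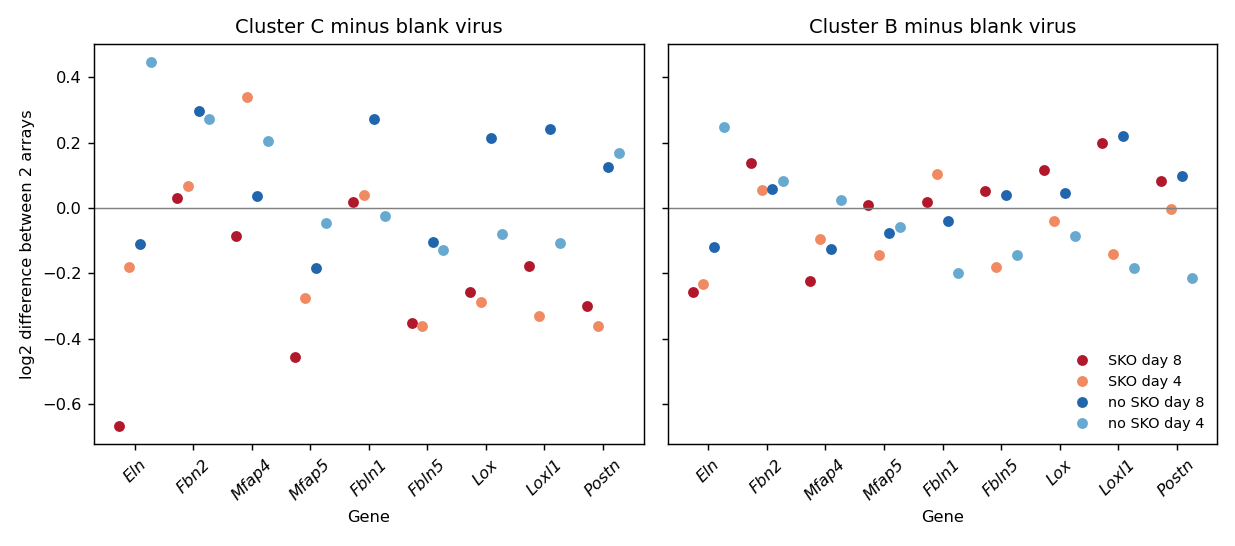
Log2 difference between the array of a microRNA cluster and the blank virus array of the same arm and day (y axis), cluster C on the left and cluster B on the right, for each gene (x axis). With SKO and cluster C, the points of Eln, Mfap5, Fbln5, Lox, Loxl1 and Postn lie below 0 on both days, with the lowest at -0.67 for Eln at day 8.

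Cluster B against blank virus called 0 of the 9 with SKO and 0 without by limma, where 0.01% and 0.0% of all genes were called. The fitted differences ran from -0.24 to 0.10 with SKO and from -0.12 to 0.07 without. With SKO, cluster C against cluster B likewise called 0 (0.0201% of all genes), with a median of -0.28 over the 9. Without SKO, cluster C against blank virus called 0 (0.0% of all genes).

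The pattern of each member over the 12 arrays was set against those of 9627 other genes, by the root mean square difference after each gene was centred on its own mean. Eln was nearest to Cfb (0.46 log2 units) and Kazald1 (0.50), Fbn2 to Phgdh (0.17) and Epb41l3 (0.19), and Mfap4 to Clec11a (0.27) and Ccn3 (0.29). Mfap5 was nearest to the microfibril genes Ltbp2 (0.16) and Adamtsl3 (0.17), Fbln1 to Kdelr3 (0.09) and Tmem150a (0.09), and Fbln5 to Negr1 (0.12) and Lmo4 (0.12). Lox was nearest to Mylk (0.15), which encodes the myosin light chain kinase of smooth muscle, and to Cacna1g (0.16), Loxl1 to Il6st (0.10) and Denn2b (0.13), and Postn to Aspn (0.18), another matrix gene, and Itm2a (0.28). Among the members themselves, Loxl1 and Fbln1 were closest, at 0.26, and Eln stood farthest from its nearest member, at 1.16 from Fbln5. The distance is not scaled and so depends on the spread of each gene. The SD over the 12 arrays was 1.27 for Eln and 0.30 for Fbln5, so their distance shows little likeness. It was 0.73 for Loxl1 and 0.63 for Fbln1.

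Other genes of elastic fibre biology gave a setting for these values. The counts of each list stand beside 12.7% of all genes called lower with SKO at day 8 and 13.4% called higher. Of 26 measured microfibril and fibulin partners, 16 fell with SKO at day 8, 1 rose and 9 did not pass, with a median of -0.49 against -0.07 for all genes. Adamtsl3 (-1.92), Mfap2 (-1.72), which encodes the close relative of the Mfap5 product, and the latent TGF-beta binding protein gene Ltbp2 (-1.59) were lowest. Ltbp4, whose product helps lay down elastin with fibulin-5, rose (0.52 ± 0.12, limma adjusted p = 0.0128), a call lost without any 1 of 3 day 8 arrays (blank virus or cluster B given with SKO, and blank virus given alone).

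Of 19 crosslinking and processing genes, 7 fell and 4 rose at day 8, with a median of -0.21. The prolyl hydroxylase genes P4ha3 (-1.12) and P4ha2 (-1.02) and the lysyl hydroxylase gene Plod2 (-0.81) were lowest. Those that rose were Pcolce2 (2.01 ± 0.15, adjusted p = 1.61e-05, limma), an enhancer of procollagen processing, the transglutaminase gene Tgm2 (1.68 ± 0.10), the lysyl oxidase family gene Loxl4 (0.95 ± 0.11, adjusted p = 0.000243) and Plod1 (0.48 ± 0.10), the last lost without the day 8 array of blank virus alone. The call of Loxl4, opposite in sign to those of Lox and Loxl1, was lost at a minimum change of 1.5-fold (adjusted p = 0.0785, limma), as were those of P4ha3, Plod2, Plod1 and Ltbp4.

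Among 14 elastin-degrading enzymes and their inhibitors, 8 fell and 1 rose at day 8, with a median of -0.42. The protease genes Ctsk (-1.26), Mmp2 (-1.07) and Mmp14 (-0.90) were lowest, and the inhibitor gene Timp3 rose (0.96 ± 0.10, adjusted p = 0.000117, limma). At day 8, where 12.7% of all genes were called lower and 13.4% higher, the 10 receptor genes were near those shares. Of them, 1 fell (the fibronectin receptor subunit Itga5, -1.07) and 2 rose (Itgb8, 0.54, and Itgb5, 0.38), with a median of -0.01. The calls of both that rose were lost without single arrays, that of Itgb5 without any 1 of the 6 day 8 arrays and that of Itgb8 without blank virus given with SKO at day 8 or in the additive fit. A minimum change of 1.5-fold ended the calls of Itgb5, Itgb8 and Mmp14.

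Markers of cell types moved with SKO beside these genes, and their part in the differences was not tested. Over all genes, 12.7% were called lower and 13.4% higher at day 8, and 9.4% lower and 9.52% higher at day 4. All 12 fibroblast markers were measured, and 9 fell at day 8 and 7 at day 4, with 0 and 1 rising. The mean of the list was 9.24 to 9.56 with SKO and 10.08 to 10.39 without. Of 10 smooth muscle markers, whose cells also make elastin, 9 fell at day 8 and 8 at day 4, and the list mean was 6.11 to 6.55 with SKO and 7.38 to 7.61 without. All 8 epithelial markers rose at day 8 and 4 of them at day 4, with list means from 5.21 to 7.20 with SKO and from 4.77 to 5.02 without. Of 9 pluripotency markers, 4 rose at day 8 and 0 passed at day 4, with list means from 3.88 to 6.79 with SKO and from 4.06 to 4.30 without. Cluster C given with SKO had the 6.79, on day 8, and the next highest with SKO was 4.97. Chondrocyte markers fell in 5 of 7 and leukocyte markers in 5 of 7 at day 8, with 1 leukocyte marker rising, and of 8 endothelial markers 1 rose. Chondrocyte list means were 4.58 to 4.95 with SKO and 5.08 to 5.81 without. Leukocyte list means were 4.98 to 5.05 with SKO and 4.98 to 5.53 without, and endothelial list means 4.44 to 4.77 with SKO and 4.04 to 4.30 without. Tek, singled out after its values were seen, ranged from 8.16 to 8.78 with SKO and from 4.01 to 5.37 in the other arm, and the mean of the other 7 endothelial markers was 3.89 to 4.22 with SKO and 3.94 to 4.19 without.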

How the data were processed

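Whole-transcript arrays were hybridised with biotin-labelled material made from 100 ng of RNA per culture, per the labels' protocols. The authors' deposited log2 table covers 28853 probe sets and ranges from 0.916 to 14.0, and the scale was judged from those numbers. The submitters' processing notes name RMA and Partek but give neither version nor use. The genome build is not given in the sources used here. If RMA was the last step, a shift common to all genes is hidden, and the number of arrays limits precision. Groups were taken from the titles, whose days match the time label and whose cells match the cell type label; the description field conflicts with both.

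Of the probe sets, 21789 had 1 gene in the platform annotation, 1621 several and 5443 none. The probe set with the highest mean was kept for each of 19938 genes. The test was limma 3.58.1 (R 4.3.3) with 8 coefficients (SKO, day, virus, and SKO by day and by virus) and 4 residual degrees of freedom, to which empirical Bayes added 4.94. The script was tested on simulated data. The members and gene lists were chosen with earlier results of these data known. All members are named. From each list the text names up to 3 genes with the largest rise and 3 with the largest fall at day 8 among those past the threshold, and any that went against the majority. The 2 genes most alike to a member were taken among those with a mean above the median, leaving out predicted, clone, olfactory, vomeronasal, small RNA and Y-linked genes. Alternatives were each arm alone, an additive fit, a cluster C effect free by day, quantile normalization, a trend with robust empirical Bayes, equal medians, dim genes left out, probe sets averaged or tested singly, a 1.5-fold minimum change, and each array left out in turn.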

Additional observations from a re-analysis of the deposited data

Results flagged for a closer look

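The change between day 4 and day 8 differed between the arms, by the limma interaction of SKO and day, for 5 members. Over all genes 2.97% were called, 1.0% lower and 1.97% higher. Leaving out any 1 array left between 1 and 3 of these members called, and Mfap4 was the only one kept each time. The difference was -0.8709 log2 units for Fbn2, -1.6196 for Mfap4, -0.9436 for Mfap5, -0.749 for Fbln5 and -0.822 for Postn. For Mfap4, Mfap5 and Postn the day differences were above 0 in both arms and smaller with SKO. Fbn2 had day differences of -1.22 with SKO and -0.35 without, and Fbln5 of -0.41 and 0.34. Groups of a single array allow no search for arrays that stand apart from replicates.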

How the results depend on the processing

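No paired analysis was possible because the labels give no replicate numbers and each combination has 1 array. Counts of members called kept within 1.5 times of those reported except in these cases. A minimum change of 1.5-fold left Eln, Lox, Loxl1 and Postn at day 4 for SKO, Eln and Fbn2 for day with SKO, and Mfap4 for the interaction. With a trend and robust empirical Bayes, 9 members passed for day without SKO in place of 4, where 14.7% of all genes were called in place of 8.68%. Leaving out each array in turn gave 3 to 6 members for day with SKO and 1 to 3 for the interaction. It gave 7 to 8 for SKO at day 8, 8 for SKO at day 4, 4 for day without SKO, and 0 in each cluster comparison. Among the members' values for SKO, day, their interaction and cluster C with SKO, signs turned for 2: Fbln5 for SKO at day 8 was 0.064308 after quantile normalization and between -0.106737 and 0.026377 without 1 array, and Mfap4 for cluster C with SKO lay between -0.054073 and 0.308452 without 1 array. Signs of members in the other cluster comparisons were not followed. The 1.5-fold minimum also ended the day 8 calls of Ltbp4, P4ha3, Plod2, Plod1, Loxl4, Mmp14, Itgb5 and Itgb8, and the additive fit that of Itgb8. The cause of these changes was not tested. With 1 array per combination, an effect on 1 day counts as error, and small cluster effects could be missed.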
